A study of Mus musculus with 9 samples.

Results

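The proteasome subunits of the mouse left ventricle are described here across a change of diet and of a gene transfer vector. Members were the annotated genes whose symbol is Psma, Psmb, Psmc, Psmd or Psme followed by a number, without the immunoproteasome genes Psmb8, Psmb9 and Psmb10 and without pseudogenes. This gave 41 of the 22036 annotated genes counted. The rule uses symbols and no measured levels, but it was set with earlier results of these data known. Of the 41, 40 passed the filter on low counts, among 14160 genes tested. The other one, Psmb11, a beta subunit of the thymus, had 0 counts in all 9 libraries, where a floor of 3 counts corresponds to between 0.0481 and 0.106 CPM, counts scaled to a common library size.

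All 9 mice were wild type, with 3 biological replicates per group, per the labels. HFD AAV-BCKDK mice were labelled with a vector named for BCKDK and the diet HFD, commonly short for high-fat diet. HFD AAV-CON mice carried the labels of the same diet and of AAV-CON, taken as the control vector, and ND AAV-CON mice those of AAV-CON and the comparison diet ND. AAV is the usual short form of adeno-associated virus, a gene transfer vector. BCKDK is the kinase that switches off the breakdown of branched-chain amino acids, and the study asks about its role in the remodelling of the obese heart. All 9 mice thus carried an AAV label, and none of the 9 combined the BCKDK vector with ND. The labels state neither the age and sex of the mice nor the promoter and dose of the vector nor the duration of the diet.

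The proteasome degrades proteins that carry a chain of ubiquitin. Its core is a barrel of stacked rings, in which alpha subunits form the gate and beta subunits hold the catalytic sites. A regulatory particle docks on the gate, where its base of ATPases unfolds the substrate and its lid removes the ubiquitin. Activator caps encoded by Psme genes can take the place of the regulatory particle. In heart muscle, which turns over its contractile proteins continuously, this system works beside muscle ubiquitin ligases that mark those proteins. Interferon exchanges the catalytic subunits for those of the immunoproteasome and induces the cap made of PSME1 and PSME2.

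Libraries held between 32803233 and 45483044 counts in annotated genes. Bckdk, the gene of the vector, had 111, 126 and 120 CPM in HFD AAV-BCKDK libraries, 37.1, 65.0 and 49.5 CPM in HFD AAV-CON libraries and 78.6, 70.3 and 70.6 CPM in ND AAV-CON libraries and was highest in the libraries labelled for it. Mitochondrially encoded genes took between 45.0% and 47.6% of counts in HFD AAV-BCKDK libraries, between 26.1% and 39.9% in HFD AAV-CON libraries and between 42.1% and 45.7% in ND AAV-CON libraries. HFD AAV-CON replicate 3 stood apart, with 1.02% of its counts in loci without a gene name, against 4.75% to 6.02% in the other 8 libraries. It was also the middle library of its group for 64.2% of the 14160 genes, and for 28 of the 40 proteasome genes, and counts and calls that change without it are given both ways below. Its independence from the other 2 libraries was not tested. The contractile and other markers of cardiomyocytes were abundant in every library, with summed levels of 33910 to 36890 CPM in HFD AAV-BCKDK, 18330 to 30970 CPM in HFD AAV-CON and 38660 to 40480 CPM in ND AAV-CON libraries.

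Most proteasome genes changed by little under HFD, and those that were called included both higher and lower genes. In HFD AAV-CON against ND AAV-CON, 11 of 40 genes were called at an adjusted p of 0.05 or less by edgeR's quasi-likelihood test. Genes of the beta ring, among them the catalytic Psmb6 and Psmb7, were lower, together with the activator Psme4. The activators Psme2 and Psme2b were higher. In HFD AAV-BCKDK against HFD AAV-CON, 6 genes were called. They were Psmb6, Psmb7 and Psme4, which were higher, and Psme1, Psme2 and Psme2b, which were lower. In HFD AAV-BCKDK against ND AAV-CON, 0 of the 40 were called. Both of the first comparisons use the HFD AAV-CON libraries, so a value that is high or low there moves both, in opposite directions.

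Read against all genes tested, fewer of the proteasome genes were called in total. Under HFD, 27.5% of them were called, 3 of 40 higher and 8 of 40 lower. Of all genes 43.3% were called, 22.7% higher and 20.6% lower. The share called lower was thus near that of all genes, and the share called higher was below it. Between the vectors, 15.0% were called, 3 higher and 3 lower, while 38.2% of all genes were, 17.3% higher and 20.9% lower. In HFD AAV-BCKDK against ND AAV-CON, 2.45% of all genes were called. DESeq2 and limma-voom also called 0 of the 40 there, and 1 gene, Psme1, had an unadjusted p below 0.05. The changes were also small in size: 33 of 40 genes (82.5%) lay within 0.3 of no change on the log2 scale in HFD AAV-CON against ND AAV-CON, as did 41.0% of all genes. The median absolute log2 fold change was 0.16 for the proteasome genes and 0.39 for all genes. No set of genes matched for expression level was compared.

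Without HFD AAV-CON replicate 3, the genes called under HFD were Psme2 and Psme2b, higher, and Psmb6 and Psme4, lower, while 28.3% of all genes were called. Between the vectors, without that library, Psmb6 and Psme4 were higher and Psme1, Psme2 and Psme2b lower, while 19.9% of all genes were called. Leaving out each of the 9 libraries in turn kept all calls under HFD of Psmb6, Psme2, Psme2b and Psme4. The other 7 calls under HFD were each lost in at least 3 of those 9 fits, and Psmc1 in all of them. Between the vectors the calls of Psmb6, Psme1, Psme2 and Psme4 were kept in all 9. More members were called without HFD AAV-CON replicate 2, with 14 lower under HFD and 10 higher between the vectors. Calls over all genes rose as well without that library, from 6134 to 7325 under HFD and from 5410 to 6978 between the vectors.

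**Figure D1:**
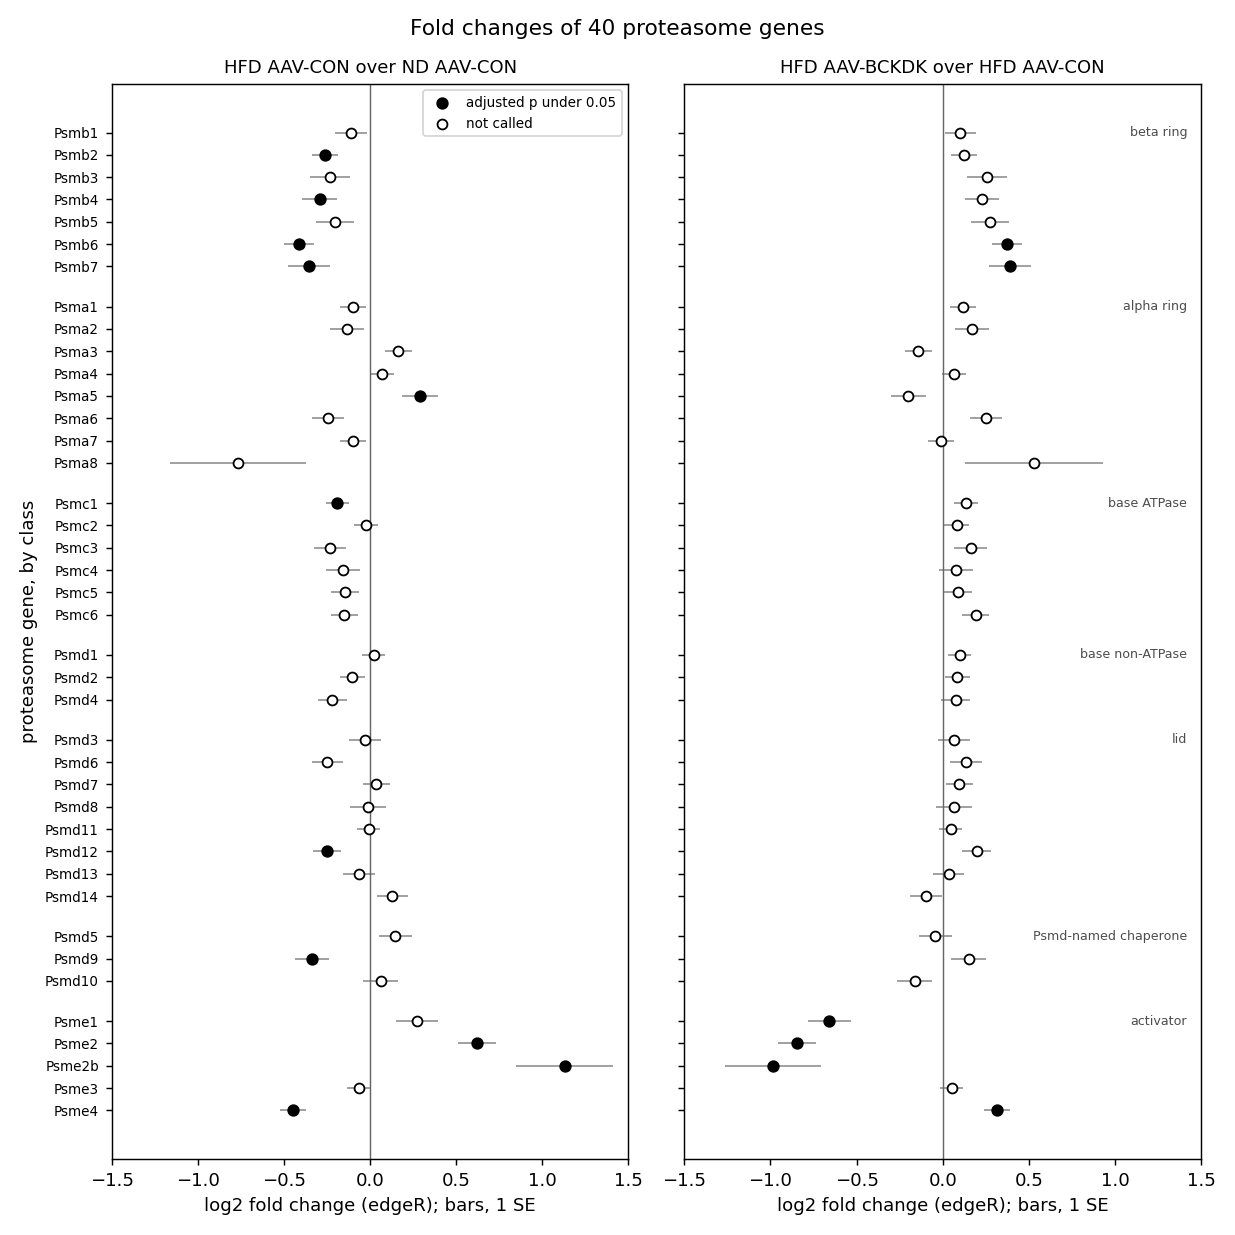
Log2 fold changes of the 40 proteasome genes tested, ordered by class, for HFD AAV-CON over ND AAV-CON at the left and HFD AAV-BCKDK over HFD AAV-CON at the right. Bars are 1 SE, and filled points have an adjusted p under 0.05. The 7 beta ring genes lie left of 0 under HFD and right of 0 between the vectors with TMM factors, not with total-count scaling, while Psme1, Psme2 and Psme2b lie on the opposite sides.

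The direction of small changes depends on how libraries are scaled. With TMM factors, used throughout, the median log2 fold change in HFD AAV-CON against ND AAV-CON was -0.11 for the proteasome genes and -0.00 for all genes. Scaling by total counts moved the median of all genes to 0.40 and that of the proteasome genes to 0.29. In HFD AAV-BCKDK against HFD AAV-CON, the same scaling moved the median of all genes to -0.47 and that of the proteasome genes to -0.36, against 0.09 for the proteasome genes with TMM. Under total-count scaling, 21 proteasome genes were then called higher and 0 lower under HFD, and 0 higher and 27 lower between the vectors. Most calls over all 14160 genes went the same way, with 5986 higher and 934 lower under HFD. Between the vectors 398 of all genes were called higher and 6867 lower. Relative to the median of all genes, the proteasome genes stood at -0.11 under both scalings under HFD, with 29 of 40 below that median. Between the vectors they stood at 0.10 with TMM and at 0.11 with total counts. Directions below are therefore relative to the median gene. The mitochondrial share of counts moved with the groups, and without the mitochondrially encoded genes total-count scaling put the median of all genes at 0.14 under HFD and at -0.15 between the vectors.

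Levels of the genes were compared per kilobase of exon, since longer genes collect more reads. In ND AAV-CON libraries the order ran from Psmb5 at 87.9 CPM per kb and Psma6 at 81.3 CPM per kb, through Psmb4 at 57.9 and Psmc3 at 52.9 CPM per kb, to the chaperones Psmd5 at 2.59 and Psmd9 at 2.12 CPM per kb. Psma8, an alpha subunit of the testis, was lowest at 0.42 CPM per kb and rested on 20 to 50 counts per library. Within every library Psmb5 stood above Psma6, its neighbour in that order, although their ranges of CPM per kb over the ND AAV-CON libraries overlapped. The order rests on the union of annotated exons as length and can change with the length used. This union was 1234 bases for Psma6 and 899 for Psmb5. Their longest transcripts held 993 and 850 stretches of 50 bases. Of the stretches of Psmb5, 57.1% also occur in other genes, so its level is uncertain. Within groups the genes were tight: the median SD of log2 CPM over 3 libraries was 0.07 in HFD AAV-BCKDK, 0.10 in HFD AAV-CON and 0.09 in ND AAV-CON, against 0.15, 0.20 and 0.14 for all genes tested.

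**Figure D2:**
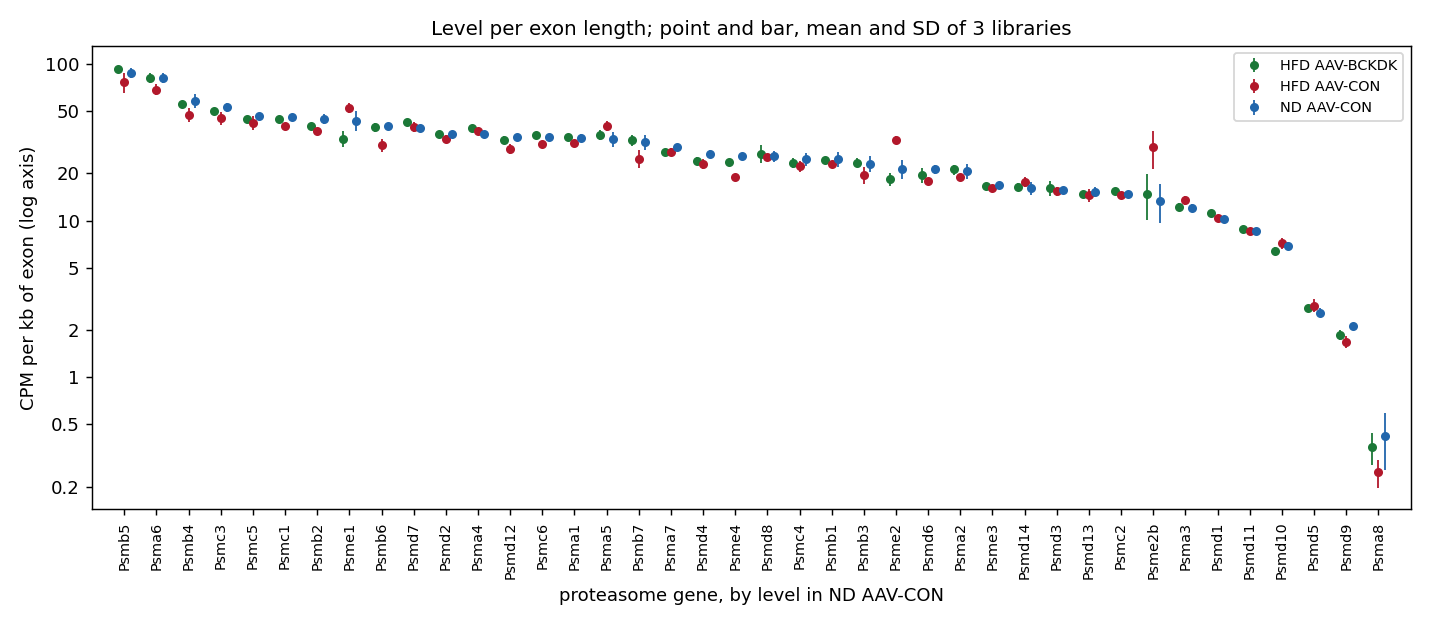
Level of each of the 40 proteasome genes with reads, in CPM per kb of exon on a log axis, ordered by the ND AAV-CON mean; points and bars are the mean and SD of 3 libraries. Levels run from 87.9 CPM per kb for Psmb5 to 0.42 CPM per kb for Psma8 in ND AAV-CON, and the groups separate most visibly at Psme1, Psme2 and Psme2b.

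In the beta ring, 4 of 7 genes tested (57.1%) were called lower under HFD, where 43.3% of all genes were called, 20.6% lower. In HFD AAV-BCKDK against HFD AAV-CON, 2 of 7 (28.6%) were called higher, where 38.2% of all genes were called. With HFD AAV-CON replicate 3 left out, 1 of the 7, Psmb6, was called in each comparison. The median log2 fold change of the 7 was -0.26 under HFD, with all 7 below 0, and 0.26 between the vectors, with all 7 above 0. These signs are those with TMM factors: under total-count scaling the median of the ring turned to 0.13 under HFD and to -0.18 between the vectors, still below and above the median of all genes. Psmb6 (ENSMUSG00000018286, chr11:70525367-70527858 in GRCm38, the build mm10) encodes the subunit with caspase-like activity. Psmb6 had 72.2, 78.6 and 70.2 CPM in HFD AAV-BCKDK libraries, 51.8, 62.7 and 55.9 CPM in HFD AAV-CON libraries and 71.6, 77.4 and 77.6 CPM in ND AAV-CON libraries. All 3 libraries of HFD AAV-CON mice were below the other 6. Its log2 fold change was -0.41 (SE 0.09, adjusted p = 0.00587) under HFD and 0.37 (SE 0.09, adjusted p = 0.0117) between the vectors, and without HFD AAV-CON replicate 3 the values were -0.40 and 0.38.

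Psmb7 (ENSMUSG00000026750, chr2:38588036-38644087) encodes the subunit with trypsin-like activity. Psmb7 had 121, 108.9 and 104 CPM in HFD AAV-BCKDK libraries, 73.5, 96.3 and 85.1 CPM in HFD AAV-CON libraries and 98.3, 122 and 106 CPM in ND AAV-CON libraries. Again the libraries of HFD AAV-CON mice were lowest, although replicate 2 came close to the ND AAV-CON libraries. The log2 fold change was -0.36 (SE 0.12, adjusted p = 0.0385) under HFD and 0.39 (SE 0.12, adjusted p = 0.0308) between the vectors, and both calls were lost when HFD AAV-CON replicate 3 was left out (adjusted p = 0.0954 and 0.0747). Exons of Nek6 overlap Psmb7 on the opposite strand, and the labels do not state whether counting used strand. Psmb5, the subunit with chymotrypsin-like activity, had 86.3, 81.3 and 82.2 CPM in HFD AAV-BCKDK libraries, 58.6, 79.2 and 68.4 CPM in HFD AAV-CON libraries and 73.4, 85.5 and 78.1 CPM in ND AAV-CON libraries. HFD AAV-CON and ND AAV-CON overlapped, and neither change was called (log2 fold change -0.20, SE 0.11 and 0.28, SE 0.11). Of the 50-base stretches of the longest Psmb5 transcript, 57.1% also occur in transcripts of other genes, mostly processed pseudogenes, so its count is uncertain.

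Among the structural beta subunits, Psmb2 had 47.3, 50.1 and 48.3 CPM in HFD AAV-BCKDK libraries, 43.4, 47.1 and 43.4 CPM in HFD AAV-CON libraries and 53.0, 57.5 and 49.9 CPM in ND AAV-CON libraries. It was lower under HFD by a log2 fold change of -0.26 (SE 0.08, adjusted p = 0.0215) and was not called between the vectors (0.12, SE 0.08). Psmb4 was also called lower under HFD, at -0.29 (SE 0.10, adjusted p = 0.0387), although 1 HFD AAV-CON library lay above the lowest ND AAV-CON library. The HFD calls of Psmb2 and Psmb4 were lost when HFD AAV-CON replicate 3 was left out (adjusted p = 0.0812 and 0.125). Psmb1 and Psmb3 were not called in either comparison.

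**Figure D3:**
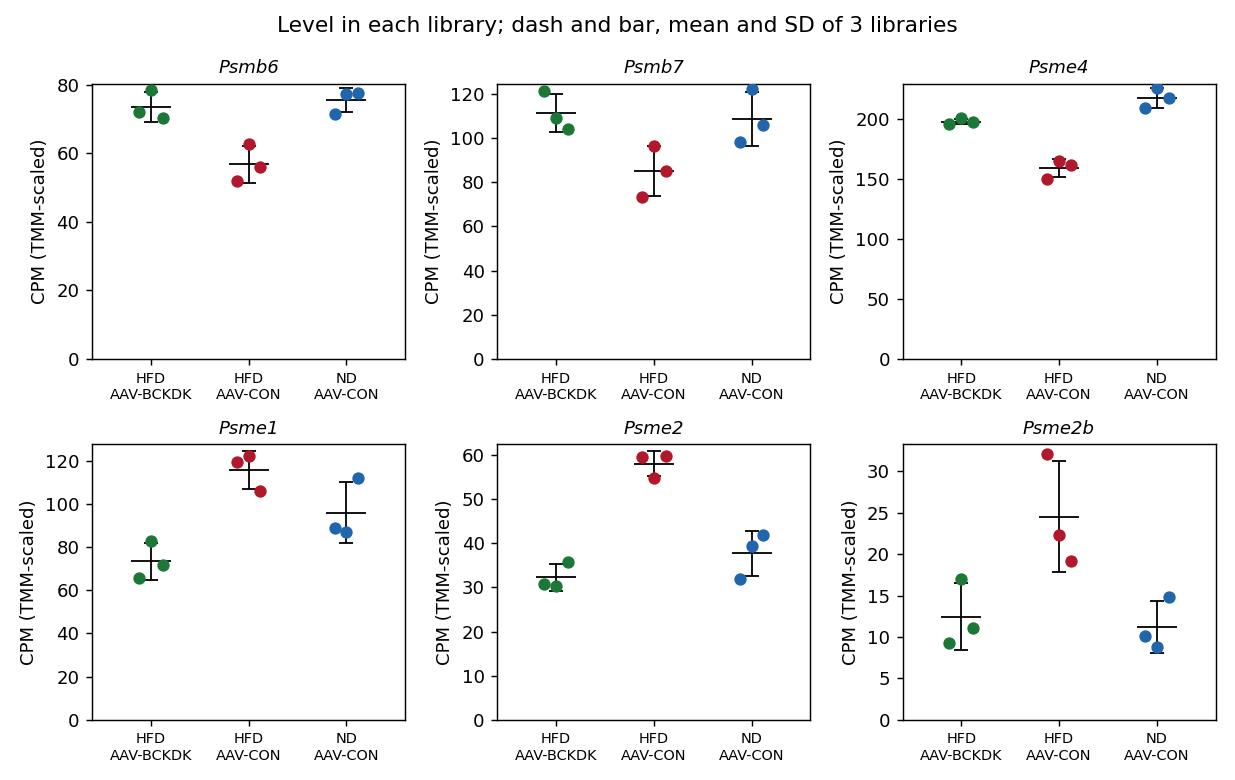
CPM of Psmb6, Psmb7, Psme4, Psme1, Psme2 and Psme2b in each library, in HFD AAV-BCKDK, HFD AAV-CON and ND AAV-CON groups from left to right. Points are libraries, and dashes and bars are the mean and SD of 3. Psmb6, Psmb7 and Psme4 are lowest in HFD AAV-CON libraries, and Psme2 and Psme2b are highest there.

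Markers of heart muscle also differed between the groups. Of the 10 cardiomyocyte markers, 8 were called lower under HFD and 8 higher between the vectors, with the summed levels given above. Without HFD AAV-CON replicate 3, 3 of the 10 were called lower and 0 higher, with a median log2 fold change of -0.69 under HFD and 0.59 between the vectors. With TMM factors the median of these markers was -0.74 under HFD and 0.62 between the vectors, and that of the beta ring -0.26 and 0.26. Under total-count scaling the medians were -0.38 and 0.20 for the markers and 0.13 and -0.18 for the beta ring. The median of all genes was then 0.40 and -0.47. Both lists lay below it under HFD and above it between the vectors. In bulk tissue, fewer cells of a type and less RNA per cell cannot be told apart. The part of the cardiomyocyte share in the levels of Psmb6 and Psmb7 was not tested.

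The alpha ring did not move as one. Of its 8 genes, 1 (12.5%) was called higher and 0 lower under HFD, where 43.3% of all genes were called, 22.7% higher. Between the vectors 0 were called by edgeR, which called 38.2% of all genes. In that comparison 1 of the 8 had an unadjusted p below 0.05 and DESeq2 called 1. Psma5 was the one gene called against the direction of most core genes. It had 47.6, 49.5 and 42.4 CPM in HFD AAV-BCKDK libraries, 56.1, 49.1 and 54.9 CPM in HFD AAV-CON libraries and 38.1, 47.7 and 45.2 CPM in ND AAV-CON libraries. HFD AAV-CON lay just above ND AAV-CON, by a log2 fold change of 0.29 (SE 0.10, adjusted p = 0.0465), and the call was lost when HFD AAV-CON replicate 3 was left out (adjusted p = 0.129). Psma5 shares 55.4% of its 50-base stretches with other genes, mostly pseudogenes, and a gene model on the opposite strand overlaps its exons. Psma6, which has no such copy, had 106, 104 and 92.3 CPM in HFD AAV-BCKDK libraries, 77.9, 91.0 and 84.99 CPM in HFD AAV-CON libraries and 92.1, 107 and 102 CPM in ND AAV-CON libraries. HFD AAV-CON libraries lay below both other groups, which overlapped each other, and the test missed the threshold in both comparisons (log2 fold change -0.25, adjusted p = 0.0585, and 0.25, adjusted p = 0.0591). Psma8 was not called (log2 fold change -0.77, SE 0.39 and 0.53, SE 0.40) and rested on few counts.

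A share of the summed core is free of any scaling between libraries. The counts per exon base of the 14 alpha and beta genes other than Psma8 and Psmb11 were summed in each library for this. Psmb6 made up 6.76%, 7.37% and 6.99% of that sum in HFD AAV-BCKDK libraries, 5.99%, 6.31% and 6.04% in HFD AAV-CON libraries and 7.43%, 6.93% and 7.46% in ND AAV-CON libraries. Psmb7 made up 6.21%, 5.59% and 5.67% in HFD AAV-BCKDK libraries, 4.64%, 5.31% and 5.03% in HFD AAV-CON libraries and 5.58%, 5.98% and 5.57% in ND AAV-CON libraries. Both shares were lowest in the 3 HFD AAV-CON libraries. Psma5 went the other way, with 6.32%, 6.58% and 5.99% in HFD AAV-BCKDK libraries, 9.19%, 7.003% and 8.41% in HFD AAV-CON libraries and 5.60%, 6.06% and 6.17% in ND AAV-CON libraries. HFD AAV-CON libraries did not overlap either other group in these 3 shares, with the limit that Psma5 shares sequence with pseudogenes. The shares of Psma3, Psma7 and Psma6 were also apart in both comparisons. Their means in HFD AAV-CON libraries were 1.26, 1.05 and 0.945 times those in ND AAV-CON libraries. Between the vectors the ratios were 0.802, 0.881 and 1.06. Psma4 and Psmb4 were apart under HFD only (1.18 and 0.914 times), and Psma1 between the vectors only (0.963 times).

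The regulatory particle changed in few genes. Of its 17 genes, 0 were called higher and 2 lower (11.8%) under HFD, where 43.3% of all genes were called, 20.6% lower. Between the vectors 0 were called by edgeR, which called 38.2% of all genes. In that comparison 2 of the 17 had an unadjusted p below 0.05 and DESeq2 called 1. All 17 lay within 0.3 of no change in both comparisons. Psmc1, an ATPase of the base, had 86.6, 84.2 and 85.4 CPM in HFD AAV-BCKDK libraries, 76.9, 74.4 and 81.9 CPM in HFD AAV-CON libraries and 86.1, 89.6 and 90.3 CPM in ND AAV-CON libraries. Its log2 fold change under HFD was -0.19 (SE 0.07, adjusted p = 0.0458) and between the vectors 0.14 (SE 0.07, adjusted p = 0.140). All 6 ATPase genes were below 0 under HFD and above 0 between the vectors, with a lowest value of -0.23 and a highest of 0.19. The call of Psmc1 was lost in each of the 9 fits that leave out a library.

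Psmc3, another ATPase, had 125, 133 and 135 CPM in HFD AAV-BCKDK libraries, 106, 129 and 117 CPM in HFD AAV-CON libraries and 127, 143 and 143 CPM in ND AAV-CON libraries, with overlapping groups. Psmc6 had 119.6, 129.9 and 118 CPM in HFD AAV-BCKDK libraries, 105, 105 and 112 CPM in HFD AAV-CON libraries and 113, 125 and 120.0 CPM in ND AAV-CON libraries. Psmc6 was just lower in all libraries of HFD AAV-CON mice than in both other groups, and the test missed the threshold (log2 fold change -0.15, adjusted p = 0.142, and 0.19, adjusted p = 0.0752).

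The remaining base subunits Psmd1 and Psmd2, its scaffolds, and Psmd4, a ubiquitin receptor, were not called. Psmd4 had 69.2, 63.3 and 70.5 CPM in HFD AAV-BCKDK libraries, 60.5, 69.4 and 62.7 CPM in HFD AAV-CON libraries and 69.5, 76.5 and 78.3 CPM in ND AAV-CON libraries (log2 fold change under HFD -0.22, SE 0.08, adjusted p = 0.0585). Psmd2 had 143, 145 and 141 CPM in HFD AAV-BCKDK libraries, 134, 142 and 128 CPM in HFD AAV-CON libraries and 140.0, 151 and 143 CPM in ND AAV-CON libraries. Psmd1 had 85.1, 77.3 and 80.3 CPM in HFD AAV-BCKDK libraries, 76.5, 74.3 and 75.6 CPM in HFD AAV-CON libraries and 76.2, 75.0 and 72.2 CPM in ND AAV-CON libraries. The differences of Psmd1 and Psmd2 lay between -0.10 and 0.10 on the log2 scale in both comparisons.

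In the lid, Psmd12 was the single gene called. It had 92.1, 83.9 and 85.2 CPM in HFD AAV-BCKDK libraries, 69.6, 80.9 and 77.5 CPM in HFD AAV-CON libraries and 86.7, 95.7 and 88.7 CPM in ND AAV-CON libraries. The change under HFD was -0.25 (SE 0.08, adjusted p = 0.0359), lost when HFD AAV-CON replicate 3 was left out (adjusted p = 0.0812), and that between the vectors was 0.20 (SE 0.08, adjusted p = 0.0885). Psmd6 had 61.8, 52.3 and 50.8 CPM in HFD AAV-BCKDK libraries, 48.5, 51.6 and 49.95 CPM in HFD AAV-CON libraries and 59.3, 63.5 and 55.4 CPM in ND AAV-CON libraries, and was not called (log2 fold change -0.25, adjusted p = 0.0519). The remaining 6 lid genes, which include Psmd14, the deubiquitinase of the particle, and its partner Psmd7, lay between -0.06 and 0.13 under HFD.

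Of the chaperones that share the Psmd name but leave the finished particle, Psmd9 was called lower under HFD. It had 14.7, 13.0 and 12.9 CPM in HFD AAV-BCKDK libraries, 13.4, 11.2 and 11.9 CPM in HFD AAV-CON libraries and 14.5, 15.8 and 15.8 CPM in ND AAV-CON libraries. The log2 fold change was -0.34 (SE 0.10, adjusted p = 0.0235), and 0.15 (SE 0.10) between the vectors, where it was not called. A gene model on the opposite strand overlaps Psmd9. Psmd10, also called gankyrin, had 9.05, 9.19 and 9.95 CPM in HFD AAV-BCKDK libraries, 9.80, 11.4 and 10.4 CPM in HFD AAV-CON libraries and 10.6, 9.45 and 10.2 CPM in ND AAV-CON libraries. Psmd5 had 20.2, 19.2 and 20.9 CPM in HFD AAV-BCKDK libraries, 18.4, 21.8 and 21.9 CPM in HFD AAV-CON libraries and 19.4, 17.3 and 19.4 CPM in ND AAV-CON libraries. The groups of both genes overlapped in every comparison, and neither was called.

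Of the changes called, the activators held the largest, and they moved apart from each other. Psme1 and Psme2 encode the alternating subunits of the PA28 cap, which is induced by interferon and linked to antigen processing. They lie close together, at chr14:55578123-55581529 (Psme1, ENSMUSG00000022216) and chr14:55587441-55591113 (Psme2, ENSMUSG00000079197). Psme2 had 30.7, 30.3 and 35.7 CPM in HFD AAV-BCKDK libraries, 59.5, 54.7 and 59.8 CPM in HFD AAV-CON libraries and 31.9, 39.4 and 41.8 CPM in ND AAV-CON libraries. HFD AAV-CON libraries were above all others, by a log2 fold change of 0.62 (SE 0.11, adjusted p = 0.00264) under HFD and of -0.85 (SE 0.11, adjusted p = 0.00142) between the vectors. Without HFD AAV-CON replicate 3 these values were 0.60 and -0.80.

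Psme1 had 65.8, 82.9 and 71.7 CPM in HFD AAV-BCKDK libraries, 119, 122 and 106 CPM in HFD AAV-CON libraries and 88.8, 87.2 and 112 CPM in ND AAV-CON libraries. HFD AAV-CON and ND AAV-CON overlapped through ND AAV-CON replicate 3, and the change under HFD was not called (log2 fold change 0.27, SE 0.12, adjusted p = 0.102). Between the vectors Psme1 was lower, by -0.66 (SE 0.12, adjusted p = 0.00494). HFD AAV-BCKDK libraries were also below all 3 ND AAV-CON libraries, by -0.39 (SE 0.12), which was not called (adjusted p = 0.151). Exons of Emc9 overlap Psme1 on the opposite strand.

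Psme2b (ENSMUSG00000078153, chr11:48945354-48946190) is a near-identical copy of Psme2. Psme2b had 9.22, 17.0 and 11.1 CPM in HFD AAV-BCKDK libraries, 32.1, 22.4 and 19.1 CPM in HFD AAV-CON libraries and 10.1, 8.78 and 14.8 CPM in ND AAV-CON libraries. Its log2 fold change was 1.13 (SE 0.28, adjusted p = 0.0109) under HFD and -0.98 (SE 0.28, adjusted p = 0.0233) between the vectors, and the second call was lost in 3 of the 9 fits that leave out a library. Of its 50-base stretches 69.3% occur in other genes, mostly Psme2, and 59.3% of those of Psme2 occur in Psme2b, so that reads of the pair cannot be assigned with certainty. With the counts of both summed, an alternative chosen after seeing the data, the log2 fold change was 0.75 (adjusted p = 0.00188) under HFD and -0.89 (adjusted p = 0.00165) between the vectors. A further gene model, 9930111J21Rik1, overlaps Psme2b on the same strand and had 1.02, 1.38 and 1.78 CPM in HFD AAV-BCKDK libraries, 4.86, 1.94 and 4.48 CPM in HFD AAV-CON libraries and 0.301, 0.999 and 0.834 CPM in ND AAV-CON libraries.

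Psme4 (ENSMUSG00000040850, chr11:30771726-30880361), which encodes the cap PA200, known for the degradation of acetylated histones, moved the other way. It had 196, 201 and 197 CPM in HFD AAV-BCKDK libraries, 150.2, 165 and 162 CPM in HFD AAV-CON libraries and 209, 225 and 218 CPM in ND AAV-CON libraries. The 3 groups did not overlap. The log2 fold change was -0.45 (SE 0.08, adjusted p = 0.0021) under HFD, 0.31 (SE 0.08, adjusted p = 0.0129) between the vectors and -0.13 (SE 0.08, adjusted p = 0.414) in HFD AAV-BCKDK against ND AAV-CON. Without HFD AAV-CON replicate 3 the first 2 values were -0.46 and 0.35. Under total-count scaling Psme4 stood at -0.46 and 0.33 relative to the median of all genes.

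Psme3, the gene of the nuclear cap PA28 gamma, had 50.3, 49.4 and 47.5 CPM in HFD AAV-BCKDK libraries, 45.8, 50.5 and 45.8 CPM in HFD AAV-CON libraries and 49.6, 49.1 and 49.8 CPM in ND AAV-CON libraries. The groups overlapped, and no change was called (log2 fold change -0.06, SE 0.07 and 0.05, SE 0.07).

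Ratios within a library need no scaling. The pair of activators called in opposite directions is given first, and it was chosen with both changes known. Per exon base, Psme2 stood at 0.745, 0.719 and 0.861 times Psme4 in HFD AAV-BCKDK libraries, at 1.88, 1.58 and 1.76 times in HFD AAV-CON libraries and at 0.727, 0.83 and 0.914 times in ND AAV-CON libraries. The mean ratio in HFD AAV-CON libraries was 2.11 times that in ND AAV-CON libraries, and in HFD AAV-BCKDK libraries 0.446 times that in HFD AAV-CON libraries. Over Psme3, which was not called, the ratio of Psme2 was 1.02, 1.03 and 1.26 in HFD AAV-BCKDK libraries, 2.17, 1.81 and 2.18 in HFD AAV-CON libraries and 1.08, 1.34 and 1.40 in ND AAV-CON libraries. Its mean in HFD AAV-CON libraries was 1.61 times that in ND AAV-CON libraries, and that of Psme1 over Psme3 was 1.26 times. For each of these 3 ratios the groups did not overlap under HFD or between the vectors, and the two-sided exact permutation p was 0.1 in each, the smallest that 3 libraries against 3 can give.

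The 3 immunoproteasome genes left out by the rule changed in the directions of Psme2. Psmb8 over Psmb5, the pair that exchange in the core, stood at 0.0543, 0.0912 and 0.0879 in HFD AAV-BCKDK libraries, at 0.586, 0.321 and 0.407 in HFD AAV-CON libraries and at 0.0845, 0.0558 and 0.151 in ND AAV-CON libraries. The count of Psmb5 is uncertain, as given above. Psmb6 shares 1.7% of its 50-base stretches with other genes. Psmb9 over Psmb6 stood at 0.0433, 0.0826 and 0.0833 in HFD AAV-BCKDK libraries. That ratio was 0.528, 0.317 and 0.422 in HFD AAV-CON libraries and 0.0629, 0.0583 and 0.104 in ND AAV-CON libraries. The log2 fold changes of Psmb8, Psmb9 and Psmb10 were 1.94, 2.05 and 1.34 under HFD and -2.18, -2.19 and -1.43 between the vectors, all called.

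**Figure D4:**
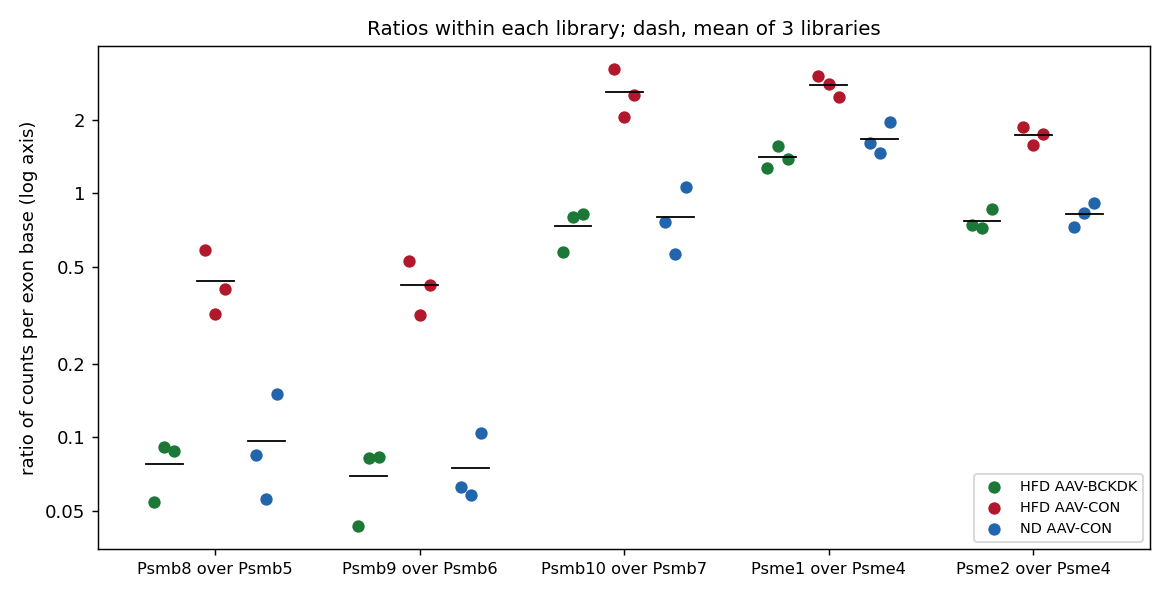
Ratios of counts per exon base within each library, on a log axis, for the immunoproteasome genes over their standard counterparts and for Psme1 and Psme2 over Psme4. Points are libraries and dashes are means of 3. HFD AAV-CON libraries lie above both other groups in all 5 ratios.

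Markers of macrophages and of T and NK cells moved with these genes, and other immune markers did so less clearly. Of 4 B cell markers, 0 were called under HFD and 2 were called lower between the vectors. Of 5 neutrophil markers tested, 1 was called in each comparison, and their median log2 fold change was 1.08 under HFD and 0.07 between the vectors. All 9 macrophage markers were called higher under HFD and lower between the vectors, also without HFD AAV-CON replicate 3, with summed levels of 236 to 309 CPM in HFD AAV-BCKDK, 867 to 1429 CPM in HFD AAV-CON and 290 to 414 CPM in ND AAV-CON libraries. Of 8 markers of T and NK cells found in the table, 7 were called higher under HFD and 8 lower between the vectors. Their summed levels were 2.66 to 12.1 CPM in HFD AAV-BCKDK, 94.7 to 173 CPM in HFD AAV-CON and 2.21 to 37.9 CPM in ND AAV-CON libraries, and Cd8a and Klrb1c were at 0 in some libraries. With HFD AAV-CON replicate 3 left out, 5 were called higher and 7 lower. The part of immune cells in the levels of Psme1, Psme2 and Psme2b was not tested.

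Promoter windows of members called in these comparisons are printed to show the response elements found near their start sites. RefSeq entries on GRCm38.p6 gave windows of 300 bases, from 250 before to 50 after the start, for 34 of the 41 genes. No entry was matched for Psma8, Psmb1, Psmb2, Psmb7, Psmc3, Psmd3 and Psmd7. The core of the antioxidant response element, which NRF1 and NRF2 bind in many proteasome genes, was searched as TGACNNNGC on both strands. It was found in 6 of 34 genes (17.6%), namely Psmb5, Psmb6, Psmc6, Psmd9, Psmd12 and Psme4, against 14.0% of all genes with a window. The interferon-stimulated response element core, searched as GAAANNGAA, was also in 6 of 34 (17.6%), against 9.76% of all genes, and Psme1 was the one activator among them. The GC box GGGCGG was in 61.8% of the proteasome genes and 38.2% of all genes, and the NF-Y box CCAAT in 38.2% and 41.1%. A match of letters is a description and not a binding site.

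The windows below are those of the 3 genes with the smallest p under HFD that hold TGACNNNGC, and of the activator that holds GAAANNGAA. Capitals mark these motifs on either strand. Psme4 lies at chr11:30771525-30771824, Psmb6 at chr11:70525107-70525406, Psmd9 at chr5:123227940-123228239 and Psme1 at chr14:55578244-55578543, all on the plus strand. The antioxidant element begins at -7 in Psme4, -9 in Psmb6 and -31 in Psmd9, counted from the start site. In Psmd9 the interferon core begins at -159, and in Psme1 it begins 10 bases after the start.
Psme4: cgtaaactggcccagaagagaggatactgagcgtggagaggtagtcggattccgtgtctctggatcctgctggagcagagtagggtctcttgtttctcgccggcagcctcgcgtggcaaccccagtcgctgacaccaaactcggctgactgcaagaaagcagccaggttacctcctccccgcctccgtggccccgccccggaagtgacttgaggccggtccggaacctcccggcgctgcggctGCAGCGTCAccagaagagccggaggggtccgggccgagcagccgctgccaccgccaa
Psmb6: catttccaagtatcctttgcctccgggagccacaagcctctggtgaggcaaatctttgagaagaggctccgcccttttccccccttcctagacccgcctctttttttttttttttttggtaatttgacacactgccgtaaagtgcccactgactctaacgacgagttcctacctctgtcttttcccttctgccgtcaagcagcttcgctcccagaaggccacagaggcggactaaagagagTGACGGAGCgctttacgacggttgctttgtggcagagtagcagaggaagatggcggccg
Psmd9: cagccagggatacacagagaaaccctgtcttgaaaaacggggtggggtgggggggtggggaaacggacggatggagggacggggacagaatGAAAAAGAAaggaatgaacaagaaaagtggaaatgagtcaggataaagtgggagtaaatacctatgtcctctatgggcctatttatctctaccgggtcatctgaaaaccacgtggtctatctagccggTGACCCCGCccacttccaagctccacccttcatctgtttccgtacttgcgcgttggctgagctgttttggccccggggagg
Psme1: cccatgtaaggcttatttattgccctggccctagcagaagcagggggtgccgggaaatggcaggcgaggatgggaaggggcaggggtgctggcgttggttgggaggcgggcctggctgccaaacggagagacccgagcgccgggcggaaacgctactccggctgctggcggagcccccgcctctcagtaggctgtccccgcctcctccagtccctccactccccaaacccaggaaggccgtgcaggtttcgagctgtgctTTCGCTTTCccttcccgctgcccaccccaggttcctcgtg
The first 3 were chosen by their p under HFD, so their calls there say nothing about the motif. Psme2 and Psme2b, the activators called higher under HFD, held neither motif in their windows.

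Regulators of proteasome genes did not move as one group: 4 of 11 were called higher and 1 lower under HFD, and 1 higher and 4 lower between the vectors. Nfe2l1, which encodes NRF1, the factor that raises proteasome genes when proteasomes fail, had 328, 386 and 336.5 CPM in HFD AAV-BCKDK libraries, 255, 296 and 265 CPM in HFD AAV-CON libraries and 273, 261 and 269 CPM in ND AAV-CON libraries. It is named outside the rule for named genes and was chosen after its values were seen. HFD AAV-BCKDK libraries were above all others, with a log2 fold change between the vectors of 0.36 (SE 0.10, adjusted p = 0.0185), and under HFD the change was 0.02 (SE 0.10). Nfe2l2, which encodes NRF2, had a log2 fold change of 0.23 (adjusted p = 0.0456) under HFD and -0.38 (adjusted p = 0.00877) between the vectors. Ddi2, the protease that cuts NRF1 into its active form, was at 0.35 and -0.48. Syvn1 and Sel1l, partners in degradation from the endoplasmic reticulum, were at 0.71 and 0.50 under HFD and at -0.41 and -0.49 between the vectors. Leaving HFD AAV-CON replicate 3 out, 2 of the 11 were called higher under HFD, and 0 higher and 4 lower between the vectors.

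Assembly factors were split: of 5 genes, 1 was called higher and 1 lower in each comparison. Pomp, the maturation factor of the core, was higher under HFD by 0.30 (SE 0.08, adjusted p = 0.0167) and lower between the vectors by -0.32 (SE 0.08, adjusted p = 0.0173). It had 79.4, 80.0 and 67.2 CPM in HFD AAV-BCKDK libraries, 95.5, 92.4 and 94.3 CPM in HFD AAV-CON libraries and 73.1, 79.0 and 76.6 CPM in ND AAV-CON libraries, with HFD AAV-CON above all others. Psmg1, a chaperone of the alpha ring, was lower under HFD (-0.48, adjusted p = 0.0117), and its partner Psmg2 was called higher between the vectors (0.44, adjusted p = 0.045). The calls of Pomp and Psmg2 were lost without HFD AAV-CON replicate 3, leaving Psmg1 under HFD and 0 of the 5 between the vectors. The call of Psmg2 was kept in 1 of the 9 fits that leave out a library.

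Of 11 other proteins that bind the proteasome, 0 were called higher and 4 lower under HFD, and 5 higher and 0 lower between the vectors. Zfand5, which stimulates the particle, was at -0.70 (SE 0.08, adjusted p = 0.000649) and 0.43 (SE 0.08, adjusted p = 0.005). Ecpas, which tethers the core to the regulatory particle, was at -0.33 (adjusted p = 0.00746) and 0.33 (adjusted p = 0.0102). Usp14, a deubiquitinase of the particle, was at -0.28 and 0.26. Txnl1, a thioredoxin-like protein of the particle, was called between the vectors, at 0.29 (adjusted p = 0.0248), and stood at -0.14 under HFD. When HFD AAV-CON replicate 3 was left out, 2 of the 11 were called lower under HFD and 2 higher between the vectors.

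Of 10 muscle ubiquitin ligases, 7 were called lower and 0 higher under HFD, and between the vectors 5 were called higher and 0 lower. Fbxo32, or atrogin-1, had 96.0, 105 and 98.6 CPM in HFD AAV-BCKDK libraries, 58.2, 77.1 and 64.4 CPM in HFD AAV-CON libraries and 145, 167 and 148 CPM in ND AAV-CON libraries. The groups did not overlap, with log2 fold changes of -1.21 (SE 0.11, adjusted p = 0.000346) under HFD, 0.58 (SE 0.11, adjusted p = 0.00497) between the vectors and -0.62 (SE 0.11, adjusted p = 0.0256) in HFD AAV-BCKDK against ND AAV-CON. Trim63, or MuRF1, was at -0.75 (adjusted p = 0.00177) under HFD and was not called between the vectors (0.26, adjusted p = 0.117). Fbxo30 was at -0.33 (adjusted p = 0.00985) under HFD, at -0.06 between the vectors and at -0.38 (adjusted p = 0.0429) in HFD AAV-BCKDK against ND AAV-CON. Ubr2 was at -0.49 and 0.36, both called. Without HFD AAV-CON replicate 3, 4 of the 10 ligases were called lower under HFD, 2 higher between the vectors and 0 in HFD AAV-BCKDK against ND AAV-CON.

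Enzymes that activate ubiquitin or pass it on were called in few cases under HFD. Of 13 activating and conjugating enzymes, 0 were called higher and 2 lower under HFD, and 4 higher and 1 lower between the vectors. Ube2g1 was at -0.23 (adjusted p = 0.0311) and 0.50 (adjusted p = 0.00196), and Ube2d1 at -0.32 (adjusted p = 0.0443) and 0.44 (adjusted p = 0.0168). Between the vectors Ube2k was at 0.32 (adjusted p = 0.034) and Uba6, an activating enzyme, at -0.45 (adjusted p = 0.0243). Leaving out HFD AAV-CON replicate 3, 0 of the 13 enzymes were called under HFD, and 3 were called higher and 0 lower between the vectors.

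The unfoldase p97 and its cofactors were mixed, with 2 of 9 called higher and 2 lower under HFD and 1 higher and 0 lower between the vectors. Under HFD, Faf1 was at -0.56 (adjusted p = 0.00284) and Ubxn1 at -0.21 (adjusted p = 0.0291), while Ubxn4 was at 0.49 (adjusted p = 0.00299) and Faf2 at 0.66 (adjusted p = 0.0113). Between the vectors Faf1 was at 0.36 (adjusted p = 0.0219). When HFD AAV-CON replicate 3 was left out, the calls of Ubxn1 under HFD and of Faf1 between the vectors were lost. Of 5 ubiquitin shuttles, Ubqln1 was called higher under HFD (0.33, adjusted p = 0.00649) and Ubqln2 lower (-0.27, adjusted p = 0.0148), and Ubqln4 higher between the vectors (0.34, adjusted p = 0.0463). Of these 3, Ubqln1 alone was called without HFD AAV-CON replicate 3. The list counts depend on scaling as the members do. Under total-count scaling, the other proteins that bind the proteasome had 3 called higher and 1 lower under HFD, and 0 higher and 5 lower between the vectors. The regulators then had 10 higher and 0 lower under HFD, and 0 higher and 7 lower between the vectors, and the muscle ligases 0 higher and 2 lower under HFD, and 0 higher and 1 lower between the vectors. The 13 enzymes had 7 higher under HFD and 6 lower between the vectors, the p97 list 5 and 8, the shuttles 2 and 3 and the assembly factors 1 and 2, with 0 called the other way. With TMM factors the list counts stand beside 43.3% of all genes called under HFD and 38.2% between the vectors. Under total-count scaling, 5986 of the 14160 genes were called higher and 934 lower under HFD. Between the vectors 398 were then called higher and 6867 lower. The lists were not tested against other genes under either scaling.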

How the data were processed

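mRNA libraries of left ventricle from 9 mice were sequenced, with 3 libraries per group. Gene counts are used as deposited by the authors. Per the submitters' processing notes, reads were aligned with HISAT2 2.0.5 to mm10, and the sources used here do not give the counting tool, its strand setting or its treatment of reads with several positions. Of 26178 entries, the 22036 with a gene name entered library sizes, and 4142 unnamed loci did not. All 9 count columns were matched to samples by name, and 0 columns were left unmapped.

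Counts were fitted across all 9 libraries with edgeR 4.0.16 (TMM factors, filterByExpr by group, quasi-likelihood test, R 4.3.3), with Benjamini-Hochberg adjustment over 14160 genes and a threshold of 0.05. Standard errors are the log2 fold change over the root of F. CPM use TMM-scaled library sizes, and levels per kb use the union of exons in GENCODE vM21. The fit was tested on simulated counts. Replicates are called biological in the labels. The p-values measure the spread between these libraries. Replicates differed by more than sampling noise, and most so in HFD AAV-CON. Between libraries of that group the chi-square per degree of freedom was 63.6 to 261. Within the other groups it was 14.9 to 23.3. All groups were fitted together, so standard errors and p-values may understate the spread of HFD AAV-CON, which enters both main comparisons. The replicate numbers were not used as pairs, and same-numbered libraries did not deviate together.

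The members and gene lists were chosen with earlier results of these data known. Named in full were the 2 members of each class with the smallest p under HFD and between the vectors, all activators, members called against their class, and up to 4 called genes per pathway list. Alternatives were other scalings and filters, DESeq2 1.42.0, limma-voom (limma 3.58.1), a fit to 2 groups, a replicate block and each library left out. Counting intervals and floors cover counting error only. The result of 1 further gene list is not reported here.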

Additional observations from a re-analysis of the deposited data

How the results depend on the processing

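Under total-count scaling, 21 proteasome genes were called higher and 0 lower under HFD, and 0 higher and 27 lower between the vectors. Without mitochondrially encoded genes these counts were 7 and 2 under HFD, and 1 and 6 between the vectors. Of all 14160 genes, total-count scaling called 5986 higher and 934 lower under HFD, and 398 higher and 6867 lower between the vectors. Without mitochondrially encoded genes, the counts over all genes were 4087 and 2046 under HFD, and 1588 and 3813 between the vectors. Under total-count scaling the log2 fold change under HFD turned to 0.13 for Psmb2, 0.0911 for Psmb4, 0.18 for Psmb5, 0.0234 for Psmb7, 0.21 for Psmc1, 0.14 for Psmd12, 0.0757 for Psmd9 and 0.33 for Psme3. It also turned to 0.0555 for Ecpas, 0.11 for Usp14, 0.16 for Ube2g1, 0.0559 for Ube2d1, 0.0749 for Fbxo30, 0.18 for Ubxn1 and 0.13 for Ubqln2. Between the vectors it turned to -0.16 for Psmb5, -0.0696 for Psmb6, -0.0471 for Psmb7, -0.14 for Psme4, -0.40 for Psme3, -0.0137 for Zfand5, -0.11 for Ecpas and -0.19 for Usp14. It further turned to -0.15 for Txnl1, -0.12 for Ube2k, -0.0768 for Ubr2, -0.0802 for Faf1, -0.10 for Ubqln4 and -0.083 for Nfe2l1. Without mitochondrially encoded genes Psme3 stood at 0.0755 under HFD and -0.0873 between the vectors. Nfe2l1 under HFD turned to -0.0008 with upper-quartile factors and ranged from -0.0459, without HFD AAV-CON replicate 2, to 0.064 when each library was left out. Total-count scaling moves all genes by the shifts given above, and no other cause was tested. A fit to the 2 groups compared called 3 members lower under HFD, and DESeq2 called 6 higher between the vectors. In HFD AAV-BCKDK against ND AAV-CON, 347 genes were called, against 136 under total-count scaling, 902 with DESeq2, 873 in the fit to 2 groups and 107 with the replicate block. With the replicate block, 2 members were called higher and 6 lower under HFD, and 3 and 3 between the vectors. Same-numbered libraries correlated by -0.22 to 0.192 in their deviations. Leaving out each library in turn gave 4050 to 7325 genes called under HFD, 2847 to 6978 between the vectors and 43 to 744 in HFD AAV-BCKDK against ND AAV-CON. Of the members, 2 to 3 were then higher and 2 to 14 lower under HFD, 2 to 10 higher and 2 to 3 lower between the vectors, with the highest counts of 14 and 10 without HFD AAV-CON replicate 2. The looser letters TGANNNNGC were in 55.9% of member genes with a promoter window and 45.0% of all genes.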

Other observations

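Other cell type markers moved with the groups as well, and their part in the proteasome values was not tested. Of 8 fibroblast markers, 6 were called higher under HFD and 7 lower between the vectors, with summed levels of 1159 to 1284 CPM in HFD AAV-BCKDK, 1897 to 4518 CPM in HFD AAV-CON and 1326 to 1408 CPM in ND AAV-CON libraries. Of 7 endothelial markers, 5 were called lower under HFD and 7 higher between the vectors. All 6 markers of cycling cells were called higher under HFD and lower between the vectors, and all 5 erythroid markers the reverse. Of 6 markers of pericytes and smooth muscle, 2 were called lower under HFD and 1 higher between the vectors. Of 5 neutrophil markers tested, 1 was called higher under HFD and 1 lower between the vectors. Of 4 B cell markers, 0 were called under HFD by edgeR, where 2 had an unadjusted p below 0.05 and DESeq2 called 1, and 2 were called lower between the vectors. Without HFD AAV-CON replicate 3, the fibroblast markers had 4 called higher under HFD and 4 lower between the vectors, the endothelial markers 3 lower and 4 higher, and the erythroid markers 5 lower and 1 higher. The pericyte and smooth muscle markers then had 2 lower under HFD and 0 called between the vectors, and the B cell markers 0 under HFD and 1 lower between the vectors, while the counts of the cycling and neutrophil markers were as with all libraries.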
